A study of Mus musculus with 12 samples.

Results

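The comparison described here set the gastrocnemius, a muscle of the calf, of Smad4 knockout mice against that of wild-type mice, in both cases with the nerve left intact. It rested on 6 of the 12 arrays of the study, 3 titled as knockout controls and 3 titled as wild-type controls, chosen by those titles alone. The other 6 arrays measured the same genotypes after 14 days of denervation, and entered only where a value is given beside the innervated one. All animals were adult CD1 mice, male per the labels, the tissue was the whole muscle, and each array of a group came from a different animal. The labels name no promoter, Cre line or deleted exon, so the cells in which Smad4 was deleted are not given in the sources used here. RNA of each muscle was read with a single dye, Cy3, on an Agilent mouse array of 41174 probes.

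Smad4 is the partner that receptor-activated Smad proteins bind before they act on genes, and it serves both branches of the TGF-beta superfamily. Myostatin, activins and TGF-beta act through Smad2 and Smad3 and limit muscle mass, whereas bone morphogenetic proteins (BMPs) act through Smad1, Smad5 and the Smad encoded by Smad9 and oppose muscle loss. Smad6 and Smad7 are inhibitors of the pathway that the pathway itself induces, and the Id genes are its best known BMP targets.

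A gene's level is given throughout as the log2 of its processed signal minus the 75th percentile of that array, and a difference is knockout minus wild type on this log2 scale, where 1 is a doubling. A probe was used when it was well above background on all 3 arrays of at least 1 of the innervated groups, and the brightest such probe stood for its gene, which left 14075 genes. Between 49.9% and 53.7% of probes were well above background on the 6 arrays. Their 75th percentiles ranged from 238 to 293 intensity units, without saturated spots. The arrays were alike in quality, but their slides were not balanced. Knockout and wild-type replicates 2 shared a slide, as did replicates 3, while wild-type replicate 1 and knockout replicate 1 lay on different slides that were scanned on different days. The sex label was not borne out. Xist, transcribed from the inactive X chromosome of females, read 626 to 1081 intensity units on the 6 arrays, and Ddx3y, Eif2s3y, Kdm5d and Uty of the Y chromosome were well above background on 0 of all 12 arrays.

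Smad4 itself was lower in the muscle labelled knockout. Its level was 3.74, 3.59 and 4.02 on the wild-type arrays and 2.42, 2.38 and 2.19 on the knockout arrays. Every knockout array lay below every wild-type array, and the knockout mean was 0.364 of the wild-type mean. The difference was -1.46 ± 0.15 (SE, n = 3 against 3), with a 95% interval from -1.79 to -1.12, and passed limma's test across all genes (Benjamini-Hochberg adjusted p = 0.0125). A second probe of the gene, dimmer by its own signal, gave -1.41. Both probes lie close together on the minus strand of chromosome 18 (mouse build mm8), at 73764420-73764479 and 73764362-73764396, and each still gave signal well above background on the 3 knockout arrays. Whether they lie inside the deleted part is not given in the sources used here. Within the slides that held both genotypes the difference was -1.21 (slide 2) and -1.83 (slide 3). With slide as a fixed block it was -1.53 and the adjusted p was 0.0856. The call was also lost when wild-type replicate 1 (adjusted p = 0.0985), or knockout replicate 1 (0.0657), 2 (0.0843) or 3 (0.0939) was left out, although the difference stayed between -1.34 and -1.55.

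Beside Smad4, few genes passed the test for a difference by genotype. Of the 14075 genes, 4 passed the test at an adjusted p under 0.05 (0.0284%), 1 of them higher (0.0071%) and 3 lower (0.0213%) in the knockout: Smad4, the tendon gene Tnmd, the chemokine gene Cxcl10 and an unnamed transcript. Without adjustment, 510 genes had a p under 0.05 (3.62%), 201 higher (1.43%) and 309 lower (2.2%). The 3 knockout and 3 wild-type arrays did not overlap for 1192 genes (8.47%), 499 higher (3.55%) and 693 lower (4.92%) in the knockout. With 3 arrays against 3, an exact permutation test of a single gene cannot go below p = 0.1 (two-sided), so single genes were tested only in the fit across all genes. That 0.1 is also the chance of no overlap in a gene without a difference, and the share of 8.47% is below it. Groups that do not overlap therefore do not by themselves mark out a gene. The 3.62% with an unadjusted p under 0.05 is likewise below the share of 0.05 that no difference would give. At a stricter cut this did not hold, as 31 of the 14075 genes had an unadjusted p under 0.001, more than a share of 0.001. The count of 4 depended on the arrays, falling to 0 when wild-type replicate 1 or any 1 knockout array was left out, to 1 without wild-type replicate 2 and to 2 without wild-type replicate 3. It was also 0 with slide as a fixed block, with only the 6 innervated arrays in the fit and without the filter on dim genes. With normexp background correction none passed, and the difference was -1.36 for Smad4, -0.86 for Tnmd, -0.43 for AK033525 and 0.24 for Cxcl10.

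The measured differences were small. Their median size was 0.12 (1.09-fold), and 95% of genes lay within 0.55 (1.47-fold) in either direction. A measured difference of at least 1.5-fold was seen for 604 genes (4.29%) and of at least 2-fold for 157 (1.12%). Arrays of different genotype were about as far apart as arrays of the same genotype. The median absolute log2 difference between a knockout and a wild-type array was 0.18 to 0.26 over the 9 pairs, against 0.20 to 0.25 over the 3 wild-type pairs and 0.21 to 0.25 over the 3 knockout pairs.

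The arrays limited how large a genotype difference could have been for most genes. The 95% intervals, each for 1 gene and not adjusted for the number of genes, had a median half-width of 0.43 on the log2 scale, or 1.35-fold. The interval lay wholly within 2-fold of no difference for 12102 genes (86.0%), within 1.5-fold for 7401 (52.6%) and within 1.25-fold for 302 (2.15%). It lay within 3-fold for 13559 genes (96.3%), which left 516 genes whose interval reached or lay beyond 3-fold, and within 4-fold for 13816 (98.2%). A test of equivalence within 2-fold, adjusted over all genes, was passed by 12626 genes (89.7%). At the other end, the interval lay wholly beyond 2-fold for 10 genes and wholly beyond 1.5-fold for 40. Of these, 8 and 26 were not well above background on at least 1 of the 6 arrays, a class that also takes in outlier spots. Where the spot was dim, the measured size involves signal near background. Only 2 and 14 were well above background on all 6.

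The share differed by signal. The interval lay within 2-fold for 94.9% of genes in the highest tertile by signal, 91.3% in the middle one and 71.8% in the lowest. Among the 899 genes that were not well above background on at least 1 of the 6 arrays, bright genes with an outlier spot included, the share was 39.9%. What passed the test had to be larger still. At the median standard error a difference of 2.68-fold would have reached the smallest t of a called gene, against 1.96-fold at the 5th percentile of the standard error and 9.60-fold at the 95th. A 1.5-fold difference was thus outside the interval of 7401 genes, while a difference of that size would not have been called at the median standard error.

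**Figure D1:**
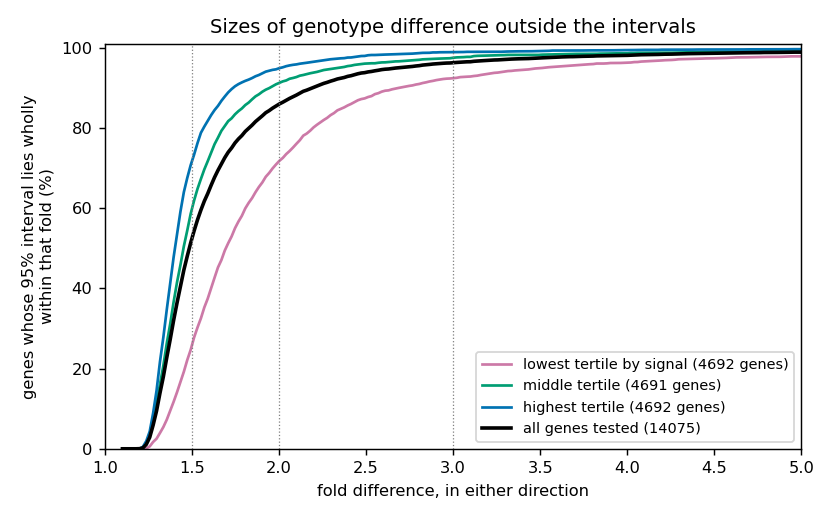
Share of genes (%, vertical axis) whose 95% interval for knockout against wild type lies wholly within a given fold difference in either direction (horizontal axis), for all genes tested and for tertiles by mean signal. At 2-fold the black line for all genes stands at 86.0%, the highest tertile at 94.9% and the lowest at 71.8%.

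Tnmd, the gene of tenomodulin, a membrane glycoprotein of tendon, was the other fall with signal on every array. Its level was 0.14, 0.19 and -0.32 on the wild-type arrays and -1.31, -1.61 and -1.44 on the knockout arrays. The groups did not overlap, and the gap between the lowest wild-type and the highest knockout array was wider than the spread within either group. The difference was -1.46 ± 0.19 (adjusted p = 0.0351, limma), with an interval from -1.87 to -1.05 and a fold of 2.74. Its probe is at 129209298-129209357 of chromosome X (mm8, plus strand). The call held without wild-type replicate 3 (adjusted p = 0.0423) and was lost without each of the other 5 arrays, at adjusted p-values up to 0.200. After denervation the same difference was -0.11 (interval -0.52 to 0.30). The change between conditions, 1.34, did not pass the test (adjusted p = 0.128).

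Cxcl10, an interferon-induced chemokine that draws T cells, was the only rise called. It was not well above background on any wild-type array and was on all 3 knockout arrays, at -3.23, -2.89 and -2.10. Set against the lowest signal that counts as well above background on the wild-type arrays, it was at least 2.82-fold higher in the knockout. It passed the signal filter through the knockout alone. The adjusted p of 0.0451 (limma) belongs to the measured difference of 2.17, not to this bound. The measured means were -2.74 ± 0.58 and -4.91 ± 0.33 (SD, n = 3 each), the second not well above background. Its probe is at 93421955-93422014 of chromosome 5 (mm8, minus strand), and the call was lost without any 1 of the 6 arrays. After denervation the difference was 1.12 (adjusted p = 0.0903).

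The last call was a transcript that the array's annotation gives only as AK033525, at 49800888-49800947 of chromosome 14 (mm8, plus strand). Its level was -2.85, -3.97 and -3.37 on the wild-type arrays, and it was not well above background on any knockout array. It passed the signal filter through the wild type alone. It was at least 1.55-fold lower in the knockout. The adjusted p of 0.0351 belongs to the measured difference of -2.79, between means of -3.40 ± 0.56 and -6.19 ± 0.25 (SD), and not to this bound. After denervation it was lower by a measured -2.60 (adjusted p = 0.00482). The innervated call was lost without any 1 of the 6 arrays, at adjusted p-values from 0.0539 to 0.188.

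The promoters of the called genes with a RefSeq start site are shown because Smad proteins act through short DNA motifs near their target genes. The 250 bases before the start are printed 5′ to 3′ on the gene's strand (RefSeq, build GRCm38.p6), with capitals marking GAAA, any 2 bases and GAAA again, the core of the element through which interferon acts.
Tnmd, chrX:133850758-133851007, plus strand: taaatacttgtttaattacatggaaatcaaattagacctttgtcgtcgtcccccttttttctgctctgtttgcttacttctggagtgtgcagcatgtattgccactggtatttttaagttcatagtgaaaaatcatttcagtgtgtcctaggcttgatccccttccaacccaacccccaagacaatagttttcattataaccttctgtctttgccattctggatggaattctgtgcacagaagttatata
Cxcl10, chr5:92348890-92349139, minus strand: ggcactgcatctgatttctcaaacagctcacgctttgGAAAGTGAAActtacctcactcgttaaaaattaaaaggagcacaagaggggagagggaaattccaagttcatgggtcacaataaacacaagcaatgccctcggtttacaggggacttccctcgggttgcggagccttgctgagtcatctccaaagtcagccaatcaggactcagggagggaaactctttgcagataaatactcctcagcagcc
The motifs GTCTAGAC, CAGACA (Smad-binding) and GGCGCC (BMP Smads) were searched on both strands of these windows with 50 bases after the start, and none was found in either. They are held by 0.213%, 21.0% and 11.9% of the 32851 such windows in the RefSeq table. The spaced pair of GAAA, added after the values were seen and held by 3.44% of windows, was found once at Cxcl10, starting 213 bases before the start, and not at Tnmd. These letters describe the windows and say nothing of binding.

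The 10 genes next in order of p that had a gene symbol, were bright on all 6 arrays and had groups that did not overlap did not pass. Among them by p, but without a gene symbol, stood the transcript AK046232 at -1.18 (adjusted p = 0.209). Wdfy1, whose protein binds a phosphoinositide of endosomes, read -0.36, -0.42 and -0.15 in the wild type and 0.98, 1.03 and 0.89 in the knockout, a difference of 1.28 (interval 0.83 to 1.73, adjusted p = 0.103). The arrays of each group were tight and the groups far apart, but the 3 probes of Wdfy1 gave 2.19, 1.28 and -0.26. With the median over probes Wdfy1 passed.

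Slc7a8, an amino acid transporter, read 0.59, 0.25 and 0.50 in the wild type and -0.88, -1.07 and -1.69 in the knockout, a difference of -1.66 (interval -2.36 to -0.97, adjusted p = 0.209). Slc8a3, a sodium-calcium exchanger of muscle and brain, differed by -0.67 (interval -0.97 to -0.38, adjusted p = 0.242), while its other probe, mostly not well above background, gave 0.02. Both of these genes were lower in the knockout after denervation too and passed there. Slc7a8 differed by -2.42 (adjusted p = 0.00335) and Slc8a3 by -0.97 (adjusted p = 0.00422). Eda2r, a receptor for ectodysplasin, was at 1.14 (interval 0.69 to 1.59, adjusted p = 0.204) and its 3 probes gave 0.98 to 1.15. Actr3b, an actin-related protein, was at 1.32 (interval 0.79 to 1.86), Ush1c, a scaffold protein, at -1.28 (interval -1.89 to -0.68) and Hebp1, a heme-binding protein, at -0.86 (interval -1.27 to -0.45). The remaining 3 of the 10, Kera, Fmod and Thbs4, are matrix genes of tendon.

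**Figure D2:**
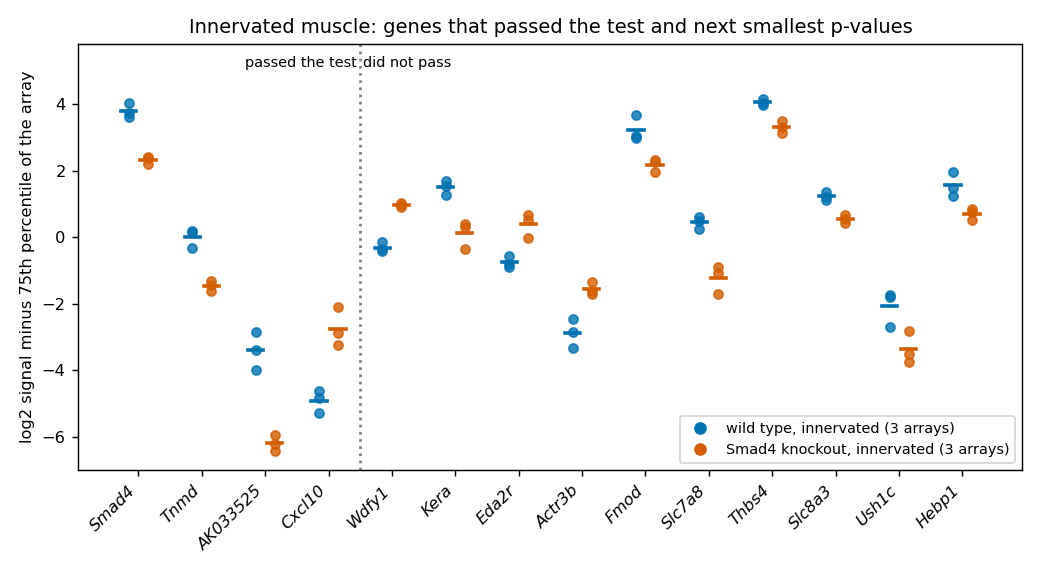
Level of each gene (log2, relative to the 75th percentile of its array, vertical axis) on the 3 wild-type and 3 knockout innervated arrays, with each group's mean as a bar. Shown are the 4 genes that passed the test and the 10 next by p among those with a gene symbol, bright on every array and without overlap. The 3 arrays of the groups do not overlap in any gene shown, which was a condition for the 10 on the right; AK033525 in the knockout and Cxcl10 in the wild type are not well above background.

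Kera, the proteoglycan keratocan, read 1.53, 1.70 and 1.25 in the wild type and 0.31, -0.36 and 0.39 in the knockout, a difference of -1.38 (interval -1.89 to -0.87, adjusted p = 0.122). Fmod, the collagen-binding proteoglycan fibromodulin, differed by -1.06 (interval -1.49 to -0.62, adjusted p = 0.209). Thbs4, a thrombospondin of tendon and muscle matrix, differed by -0.73 (interval -1.03 to -0.42, adjusted p = 0.217), and by -1.08 at its second probe. None of the 3 passed, and all 3 had every knockout array below every wild-type array.

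A list of 15 tendon genes was then put together, after these values had been seen. Of the 15, all tested, 13 were below 0 and 6 had groups that did not overlap with the knockout lower (693 of all genes, 4.92%), with a median of -0.73 against -0.01 over all genes. Apart from Tnmd no member passed. Without the 4 genes that had led to the list, 9 of 11 were below 0, 2 had non-overlapping groups and the median was -0.14. Mkx, a homeobox regulator of tendon, was at -0.82, and Scx, the tendon transcription factor scleraxis, at -0.01, with its arrays overlapping. Cilp, a cartilage matrix protein, went the other way at 1.38. The summed linear level of all 15 was 46.5 to 54.7 on the wild-type arrays and 31.2 to 44.7 on the knockout arrays, in units of the array's 75th percentile. This sum includes the 4 genes that had led to the list, which were picked for their fall. It therefore says nothing of the other 11, and no sum without the 4 was made. After denervation the median of the list was -0.11. In a whole muscle, fewer tendon cells and less RNA per cell cannot be told apart, and the part of tendon tissue in the fall of Tnmd was not tested.

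The pathway of Smad4 gave no further call. Of a panel of 30 genes of the pathway and of muscle wasting, 28 were tested (Smad9 and Chrng were too dim), Smad4 alone passed, and the interval of 19 lay within 2-fold and of 11 within 1.5-fold. The intervals below therefore say more than the p-values. Every other Smad gene tested was below 0, 6 of 6, with a median of -0.25, where 46.7% of all genes were above 0. In 3 of them the groups did not overlap, against 4.92% of all genes with the knockout lower.

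Smad6, an inhibitory Smad, read 0.17, 0.16 and 0.11 in the wild type and -0.32, -0.25 and -0.33 in the knockout. All knockout arrays were lower, by a margin wider than either group, and the difference was -0.45 (interval -0.80 to -0.09, unadjusted p = 0.0181 in limma's fit, not passing after adjustment). Smad7, the other inhibitory Smad, read -0.49, -1.16 and -0.90 against -1.23, -1.54 and -1.76, a difference of -0.66 (interval -1.35 to 0.03). Here the lowest wild-type array and the highest knockout array were close together. Smad3, which carries the TGF-beta and myostatin signal, was at -0.40 (interval -0.77 to -0.02), also without overlap. Smad1 at -0.10 (interval -0.42 to 0.23), Smad2 at -0.07 (-0.43 to 0.29) and Smad5 at -0.01 (-0.43 to 0.41) had intervals within 1.5-fold.

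The Id genes, targets of BMP signalling that block myogenic transcription factors, did not pass. Id1 was at -0.02 (interval -0.87 to 0.83), Id2 at -0.35 (-1.05 to 0.34) and Id3 at -0.13 (-0.53 to 0.28). A 2-fold loss thus lay outside the interval for Id1 and Id3 but not for Id2. For Id1 this rests on the spread pooled with the denervated arrays. It read 1.82, 0.98 and 1.87 in the wild type and 2.56, 0.88 and 1.18 in the knockout. The SD of these groups was 0.50 and 0.89, against 0.075 and 0.38 after denervation. After denervation 2 of the 3 passed, Id2 at -2.23 (adjusted p = 0.00552) and Id3 at -1.14 (adjusted p = 0.0109), as did Smad6 at -1.15 (0.00522) and Smad7 at -1.48 (0.0366). The change between conditions did not pass for any of these 4, with adjusted p-values of 0.183 for Id2, 0.214 for Id3, 0.375 for Smad6 and 0.609 for Smad7.

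None of the ligands, receptors and antagonists passed. Mstn, which encodes myostatin, the muscle's own growth inhibitor, was at -0.04 (interval -0.43 to 0.35). Its receptor Acvr2b was at 0.37 (-0.09 to 0.84) and the BMP receptor Bmpr1a at 0.13 (-0.37 to 0.64). Gdf5, a BMP ligand induced by denervation, was at 0.51 (-0.23 to 1.25) and the BMP antagonist Nog at -0.48 (-1.56 to 0.60), neither with an interval within 2-fold. Of 25 BMP ligands, receptors and antagonists tested, none passed and 20 had intervals within 2-fold, with a median of -0.08. Of 19 myostatin, activin and TGF-beta ligands, receptors and antagonists none passed, 16 had intervals within 2-fold and the median was 0.02. Of 13 BMP target genes none passed, 10 were below 0 and the median was -0.13. Of 24 TGF-beta target genes none passed, 12 were above and 12 below 0, and the median was 0.01. Cdkn1a, a cell-cycle inhibitor in that list, was at 0.97 (0.34 to 1.61, adjusted p = 0.955) without overlap.

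None of the genes of muscle wasting passed. Trim63, the ubiquitin ligase MuRF1, read 5.45, 5.46 and 5.68 against 6.14, 6.12 and 5.59, with knockout replicate 3 among the wild-type arrays, and differed by 0.42 (interval -0.08 to 0.92). Fbxo32, the ligase atrogin-1, was at 0.39 (-0.71 to 1.49) and Fbxo30, the ligase MUSA1, which BMP signalling is known to repress, at 0.06 (-0.45 to 0.57). A doubling of Fbxo30 or Trim63 thus lay outside the interval, a doubling of Fbxo32 inside it. Igf1 was at 0.01 (-0.55 to 0.57), Ppargc1a, a regulator of mitochondria, at -0.18 (-0.72 to 0.37), and Hdac4, a mediator of denervation, at 0.16 (-0.14 to 0.46). Chrna1, a subunit of the acetylcholine receptor, was at -0.23 (-0.51 to 0.05). Myog and Myod1, myogenic transcription factors, were at 0.23 (-0.56 to 1.03) and -0.87 (-2.27 to 0.53).

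**Figure D3:**
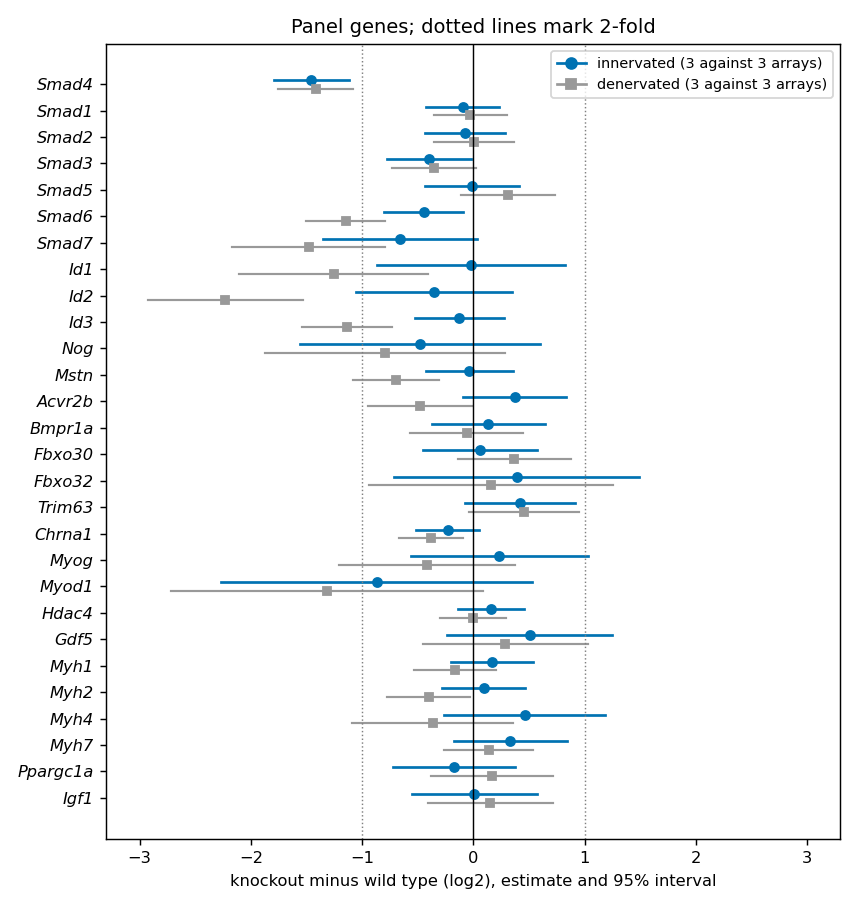
Knockout minus wild type (log2, horizontal axis) with its 95% interval for the 28 panel genes tested, in innervated (circles) and denervated muscle (squares), each from 3 against 3 arrays except for Myh7, which has 1 innervated and 2 denervated knockout arrays; dotted lines mark 2-fold. In innervated muscle the interval of Smad4 alone lies wholly beyond 2-fold, and 19 intervals lie wholly within it.

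Genes of energy metabolism and of protein turnover lay in narrow ranges around no difference. All 50 genes of oxidative phosphorylation tested had intervals within 2-fold and 42 within 1.5-fold, from -0.19 for Sdha to 0.27 for Ndufs7, with a median of 0.07. All 33 proteasome genes were within 2-fold and 31 within 1.5-fold (median 0.02), as were 17 of 17 heat shock genes within 2-fold (median 0.10). The same was true of 35 of 36 genes that serve the citric acid cycle or oxidise fatty acids (median near 0), 43 of 46 cytosolic ribosomal proteins (median 0.01) and 24 of 25 genes of autophagy and lysosome (median -0.05). None of these genes passed. Over all genes tested the share within 2-fold was 86.0%.

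Of glycolysis and glycogen genes, 21 of 22 lay within 2-fold. The exception was Pdk4, the kinase that shuts off pyruvate dehydrogenase in fasting. It read 4.64, 4.54 and 4.21 in the wild type and 6.78, 5.14 and 5.22 in the knockout, all knockout arrays higher and replicate 1 far above the rest, a difference of 1.25 (interval 0.28 to 2.23) that did not pass.

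Genes of fast and of slow fibres both leaned upward by small amounts. Of 13 slow-fibre sarcomere genes tested, 13 were above 0 with a median of 0.20, and of 15 fast-fibre genes 14 were above 0 with a median of 0.13, against 46.7% above 0 over all genes. The members share their arrays and are no replicates. Between arrays of a group the list median had an SD of 0.10 (slow) and 0.25 (fast). Summed levels overlapped, at 836 to 1087 in the wild type against 880 to 1219 in the knockout (slow). For fast fibres they were 3646 to 5245 against 4824 to 5133. None passed, 11 and 12 of them had intervals within 2-fold, and 1 gene in each list had non-overlapping groups with the knockout higher, against 3.55% of all genes. Among the myosin heavy chains, Myh1 was at 0.17 (interval -0.20 to 0.54), Myh2 at 0.09 (-0.28 to 0.47) and Myh4 at 0.46 (-0.26 to 1.18). Myh4 read 7.83 on wild-type replicate 1 and 8.85 to 9.09 on the other 5 arrays, which did not overlap by genotype. Myh7 was at 0.33 (-0.17 to 0.84), but its spot was marked as an outlier on 2 knockout arrays, which were left out of its fit. Its interval therefore assumes that the 1 knockout array left varies like the other groups. With that 1 array above all 3 wild-type arrays, Myh7 was counted as not overlapping, a weaker condition than 3 arrays above 3.

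Among regulators of myogenesis, 17 were tested and none passed. Tead4, a transcription factor of muscle differentiation, well above background on 2 of 3 wild-type arrays, was at 1.41 ± 0.27 (SE, adjusted p = 0.209), without overlap. Of 15 genes of the neuromuscular junction none passed and 12 were below 0, with a median of -0.10. Of 23 genes of IGF, Akt and FoxO signalling none passed, 21 lay within 2-fold and the median was 0.03. Rps6kb1, the kinase that drives protein synthesis downstream of mTOR, was at -0.54 (-0.96 to -0.13).

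Of 31 extracellular matrix genes tested none passed, 25 were above 0, 7 had non-overlapping groups with the knockout higher (3.55% of all genes) and the median was 0.26. Their summed level was 335 to 367 on the wild-type and 321 to 517 on the knockout arrays, which overlap. Col3a1, a fibrillar collagen, was at 0.53 (interval 0.03 to 1.03) and Col4a2, of the basement membrane, at 0.49 (-0.04 to 1.02). The markers of fibroblasts had a median of 0.06 over 8 genes, and their summed level was 212 to 225 on the wild-type and 183 to 328 on the knockout arrays, which overlap. Their part in the level of the matrix genes was not tested.

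Intervals of clock genes were wide, with a median half-width of 0.73 against 0.43 over all genes. Of 19 genes of the circadian clock and its outputs tested, none passed, 8 had intervals within 2-fold, and 5 had an unadjusted p under 0.05 (3.62% of all genes), 1 higher and 4 lower. Per2, a repressor of the clock, read 0.20, 0.30 and -1.68 in the wild type and -3.56, -3.58 and -0.47 in the knockout. Arntl, which encodes the activator BMAL1, read 0.21, 0.21 and 1.65 against 2.02, 2.30 and 0.90. In both genes replicates 1 and 2 stood far apart by genotype while replicates 3 lay in the opposite order, so the groups overlapped. The differences were -2.15 ± 0.74 (SE) for Per2 and 1.05 ± 0.44 (SE) for Arntl. Hlf, a clock output, was at -0.77 (-1.50 to -0.04) without overlap.

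**Figure D4:**
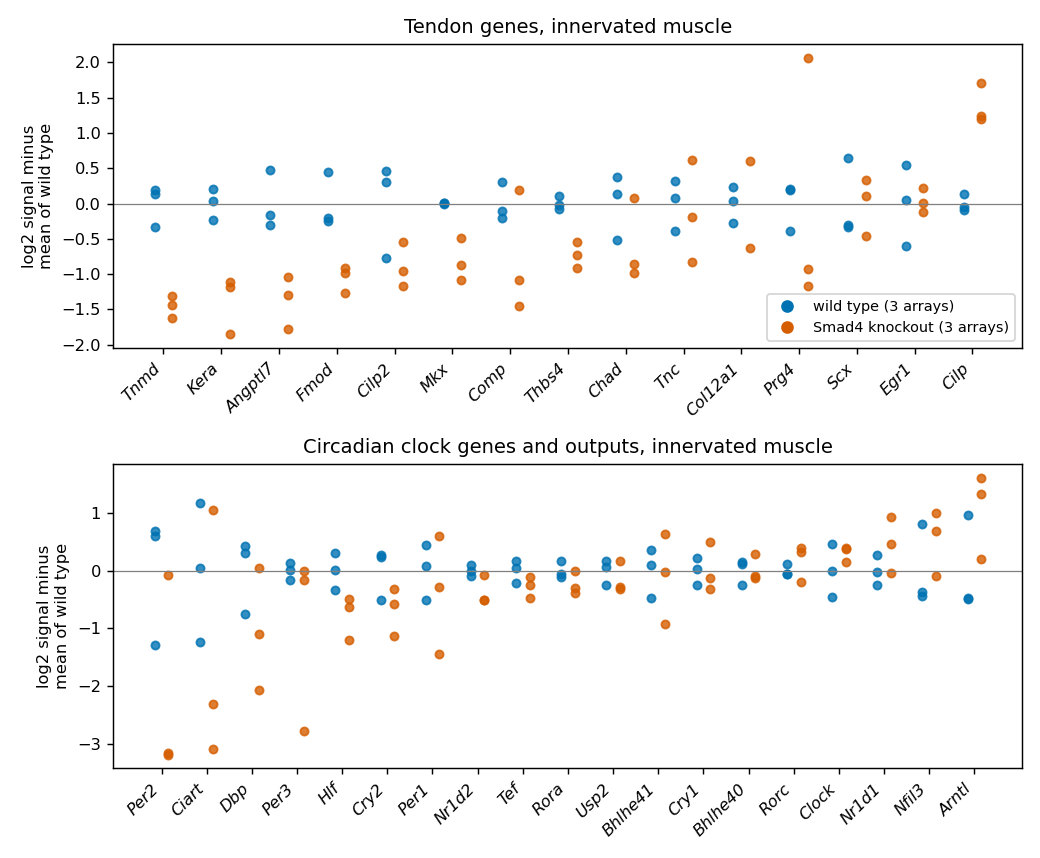
Level on each innervated array minus the wild-type mean of that gene (log2, vertical axis) for the 15 tendon genes and the 19 clock genes tested, 3 wild-type and 3 knockout arrays each. The knockout arrays lie below all wild-type arrays for 6 tendon genes, Tnmd among them, whereas Per2 and Arntl overlap through replicate 3.

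Other genes that interferon induces were not higher with Cxcl10, which is not on this list. Of 21 interferon response genes tested none passed, 19 were below 0 and the median was -0.15. Rsad2, an antiviral enzyme, was the lowest at -0.52 (interval -0.92 to -0.11). Of the 7 markers of T and B cells, 3 were bright enough to test, all 3 were below 0 (Cd3e at -0.48), and their summed level was 0.304 to 0.372 on the wild-type and 0.172 to 0.400 on the knockout arrays. The 8 macrophage markers had a median of 0.12 and summed levels of 28.2 to 44.8 against 24.1 to 57.4. None of these lists had its groups apart, and their part in the level of Cxcl10 was not tested.

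The markers of other cells in whole muscle were checked in the same way, and none passed. Medians were 0.07 for 10 endothelial genes, 0.01 for 8 of smooth muscle and pericytes, 0.32 for 6 of adipocytes, -0.18 for 8 of Schwann cells and -0.72 for 3 of erythrocytes. Muscle fibre markers were high on all arrays, with a summed level of 2206 to 2928 in the wild type and 2878 to 3034 in the knockout. Of satellite cell markers, Pax7, which marks the muscle stem cell, read -3.36, -3.27 and -3.83 against -1.08, -2.77 and -2.83. All knockout arrays were higher, replicate 1 most, and the difference was 1.26 (interval 0.27 to 2.25), not passing.

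Denervated muscle showed more differences by genotype in the same fit. There, 266 genes passed (1.89%), 103 higher (0.732%) and 163 lower (1.16%) in the knockout, against 4 in innervated muscle, and the median size of a difference was 0.21 against 0.12. Measured differences of at least 2-fold numbered 438 against 157. Of the 4 innervated calls, all 4 had the same sign after denervation and 2 passed there, Smad4 at -1.42 (adjusted p = 0.00178) and AK033525. Of the 31 genes with an unadjusted p under 0.001 in innervated muscle, 23 had the same sign and 8 passed after denervation. Of the 266 denervated calls, 164 had the same sign in innervated muscle and 2 passed there. The innervated and denervated groups share no array, but they share the estimate of spread. The titles do not say whether arrays of the same genotype and number share an animal. The change of the genotype difference between conditions was tested itself and passed for 11 genes (0.0782%).

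**Figure D5:**
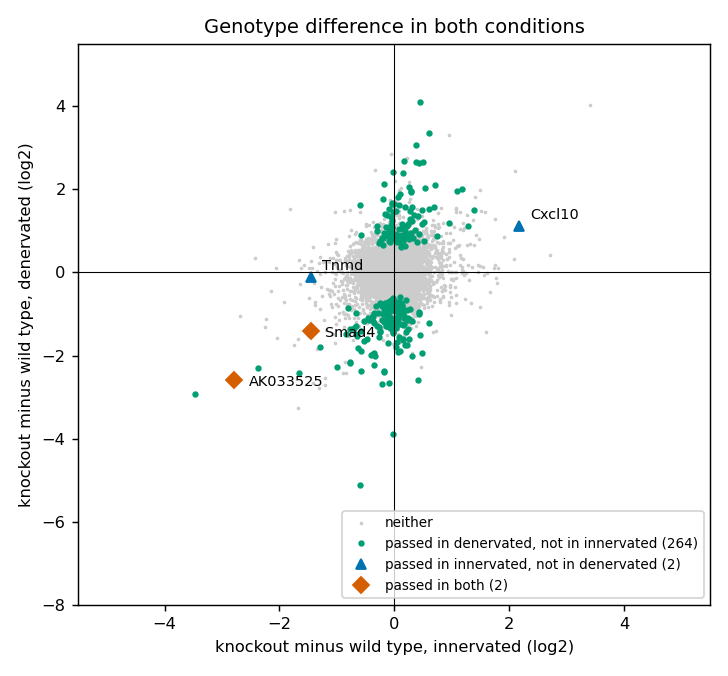
Knockout minus wild type in innervated (horizontal axis) and denervated muscle (vertical axis), both log2, for each of the 14075 genes, coloured by the condition in which the gene passed the test. Most of the 264 genes that passed after denervation and not before lie close to 0 on the horizontal axis, and Smad4 and AK033525 passed in both.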

How the data were processed

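The sample titles gave each array's group and replicate number. The authors deposited scanner files with the intensity of every spot. The processed signal was, per the file headers, background-subtracted and detrended by Feature Extraction 10.7.3.1, with no normalization between arrays, whereas the submitters' processing notes name version 10.5.1.1. Control spots were dropped, outlier spots counted as missing and as not well above background, and repeat spots of 1 probe were averaged. Of 41174 probes, a RefSeq table named 24488 through their accession, 6240 through the symbol and 2385 through an older name. The file's own name was kept for 8061. The 20525 probes kept gave 14075 genes, of which 118 had a missing value on an innervated array. All 12 arrays were fitted as 4 group means in limma 3.58.1 (R 4.3.3), with 8 residual and 3.51 prior degrees of freedom, two-sided tests and Benjamini-Hochberg adjustment within each comparison. The number of arrays limits the precision. The script was tested on simulated data. Tables and figures were made in Python 3.11.15 (pandas 2.3.3, matplotlib 3.10.9).

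The groups compared and the 41 lists, with 745 memberships of which 692 were tested, were chosen with earlier results of these data known. Named are Smad4, the panel, up to 15 called genes per direction with a gene symbol that were bright on all arrays without overlap, up to 5 called genes per direction as bounds, the 10 next by p under the same conditions, and up to 4 members per list by p. Mkx, Scx, Cilp, Sdha, Ndufs7, Cd3e, AK046232 and the genes of the closing section outside this rule were chosen after their values were seen. A bound sets each array of the dim group at its lowest signal well above background or the gene's own signal, whichever is higher. Probe positions are on mm8, and no mm8 genome was used here. Alternatives covered normalization, filter, probe choice, slide, replicate number, prior, the deposited matrix of processed intensity values (scaling method not stated) and each array left out.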

Additional observations from a re-analysis of the deposited data

Results flagged for a closer look

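For 11 genes the genotype difference itself differed between denervated and innervated muscle, by the interaction in limma's fit (adjusted p under 0.05). Values below are the denervated minus the innervated difference on the log2 scale. All 11 passed the test of genotype after denervation, and none passed before.

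In 6 genes the change was towards a lower level in the knockout. Npr3, the clearance receptor for natriuretic peptides, changed by -3.87 (adjusted p = 0.00367), with an innervated difference of -0.02 and an interval from -0.58 to 0.54. Rgcc, a regulator of the cell cycle, changed by -2.55, and Adra1b, an adrenergic receptor, by -3.004. Sh3bp4, an adaptor of endocytosis, changed by -1.41, Tspan9, a tetraspanin, by -1.46, and the myosin regulatory light chain gene Myl12a by -1.18.

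In the other 5 the change was towards a higher level. Adora2b, an adenosine receptor, changed by 2.51, Cdkn1c, a cell-cycle inhibitor, by 2.68, Dkk3, a secreted protein of the Dickkopf family, by 1.95, and Ifitm7, of the interferon-induced transmembrane family, by 1.72. The unnamed transcript A430090L17Rik changed by 1.499, from -0.59 in innervated muscle (interval -0.93 to -0.24) to 0.91 after denervation, and its sign differed between the conditions. For the other 10 the innervated interval lay within 2-fold and included 0.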

How the results depend on the processing

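The count of 4 genes called for knockout against wild type in innervated muscle and the fall of Smad4 were recomputed under 22 other settings, 3 of them (marked below as added) chosen after seeing the data. No called value reversed in sign in any. The count was 0 with only the 6 innervated arrays, with normexp at an offset of 50, without a filter and with slide as a fixed block. It was 2 with genes bright on all 6 arrays and 1 with genes bright in any of the 4 groups. The count stayed at 4 with quantile normalization, the array median, the deposited matrix, slide as a random block and a trended robust prior, and was 6 with the median over probes. Where a count was 0, the genes with an unadjusted p under 0.05 numbered 622 with the 6 arrays, 86 with normexp, 904 without a filter and 673 with the slide block. Leaving out 1 array gave counts from 0 to 2. Among the added settings, the 6 arrays with a replicate block gave 0, the 6 with a trended robust prior 11, and leaving out both arrays of replicate 1 gave 0.

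Smad4 stayed between -1.34 and -1.55 in all 22 settings and passed in 12. It missed the threshold with only the 6 arrays (-1.46, adjusted p = 0.0891), with normexp (-1.36), without a filter (-1.46), with slide as a fixed block (-1.53), with the added replicate block on 6 arrays (-1.46) and without both arrays of replicate 1 (-1.52), and in 4 of 6 fits without 1 array (-1.34 to -1.55 over all 6). Tnmd passed in 10 of 22, AK033525 in 7 of 21 and Cxcl10 in 6 of 21.

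With the replicate number as a block on all 12 arrays, 2 genes were called, Smad4 and Tnmd. The numbers were not taken as pairs. Deviations of same-numbered innervated arrays, which differ in genotype and so in animal, correlated at 0.05, 0.18 and -0.11. For the innervated and denervated wild-type arrays they correlated at 0.33, 0.096 and 0.23, each best with its own number. For the knockout these were 0.07, 0.03 and 0.20, and only the last was best with its own number. The titles do not say whether same-numbered arrays of a genotype came from the same animal. The test of the change between conditions treated them as independent, and with the replicate block 9 genes passed it.

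The number of genes with an interval within 2-fold was 12102, and 18807 without a filter, where 27591 genes were tested (68.2%). The 11 genes whose genotype difference changed with denervation became 22 with quantile normalization, 6 with the array median, 17 with the deposited matrix and 0 with normexp. The cause of these shifts was not tested, beyond the number of genes tested or of arrays used where that is what the setting changes. Dim genes, 71.8% of them within 2-fold in the lowest tertile by signal, limit what can be said of low transcripts.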

Other observations

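Several other gene groups were described in the same way, and none of their members passed. Of 16 genes of embryonic muscle or linked to denervation, 8 were above and 8 below 0 and 6 had intervals within 2-fold. Igfn1, a muscle protein with immunoglobulin and fibronectin domains, read -1.86, -1.10 and -1.24 in the wild type and -5.90, -4.71 and -3.98 in the knockout. It was not well above background on any knockout array and was at least 6.10-fold lower there, a bound added after the values were seen. The signal filter was passed through the wild type alone. The measured difference of -3.46 did not pass (adjusted p = 0.103, limma). Krt18, a keratin, was at 2.71 with overlapping arrays. Of 24 genes of stress, growth arrest and the glucocorticoid response, 15 were above 0 and the median was 0.04. Fkbp5, a glucocorticoid target, was at 0.68 (interval 0.17 to 1.19) without overlap. Medians were 0.07 over 20 ubiquitin ligases of muscle, 0.11 over 23 genes of excitation-contraction coupling, 0.12 over 21 immediate early genes, -0.10 over 16 cell cycle genes and -0.05 over 10 genes of polyamine metabolism.

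The following genes were chosen after their values were seen. A stretch of 3.99 Mb on chromosome 14, from 49687781 to 53676564 (mm8), held all 3 genes of that chromosome with an unadjusted p under 0.001 in innervated muscle: AK033525, Rpgrip1 and Slc7a8. Of its 45 genes tested, 8 had an unadjusted p under 0.05, against 5.45% of the 495 tested on that chromosome and 3.62% of all genes. The count of 8 is partly fixed by the choice, since the stretch was drawn from Ttc5 to Slc7a8 for their low p. Differences in the stretch went both ways, with Ttc5 at 0.63 and Mettl17 at -0.72. Rpgrip1 was at -2.37 (adjusted p = 0.121) by its brightest probe and at -2.72 by the other probe with signal, while its remaining 4 probes were well above background on at most 1 array. Klra9, a receptor of natural killer cells, was not well above background on any knockout array and was at least 1.91-fold lower there. It, too, passed the signal filter through the wild type alone. Its measured difference of -2.69 did not pass. Smad4 is on another chromosome, and of the 10 tested genes on either side of it none passed.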
